A study of Triticum aestivum with 21 samples.

Results

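Glucose-6-phosphate dehydrogenase (G-6-PDH) was followed through wheat anther development with the 3 control probe sets that the array carries for the 5′ part, the middle and the 3′ part of its transcript. The members were all rows of the table whose identifier begins with AFFX-Ta_G-6-PDH, namely AFFX-Ta_G-6-PDH_5_s_at, AFFX-Ta_G-6-PDH_M_s_at and AFFX-Ta_G-6-PDH_3_s_at, which are 3 of 61290 probe sets and 3 of the 25 wheat control probe sets. Anthers of the cultivar Chinese Spring, wild type and untreated, were sampled at 7 stages. The youngest anthers had not entered meiosis (PM), and those in meiosis were divided into the interval of leptotene to pachytene (called LP), that of diplotene to anaphase I (called DA) and that of the telophases I and II (called TT). Tetrads (T), anthers with immature pollen (IP) and mature anthers (MAN) came last. Each stage was hybridized to 3 arrays, which gives 21 in all. Whole anthers were used, so that meiocytes, tapetum, epidermis and later pollen all contributed RNA. By the Methods, the anthers of a stage were pooled, their RNA was amplified in 2 rounds, and the 3 arrays repeat that 1 pool as technical replicates. Each SD, SE and p therefore covers technical spread alone, and nothing is known of the spread among plants.

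G-6-PDH catalyses the first step of the oxidative pentose phosphate pathway, in which glucose-6-phosphate is oxidized to 6-phosphogluconolactone and NADP is reduced to NADPH. The pathway supplies reducing power for the synthesis of fatty acids and for the defence against oxidants, and it supplies pentose phosphates for nucleotides and aromatic compounds. Plants have cytosolic and plastidic forms of the enzyme. In anthers, the tapetum and the young pollen grain synthesize much lipid for the pollen wall and for storage.

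The probe sets of a transcript are not independent measurements of it, since they share the RNA, the amplification and the array. All 3 identifiers end in _s_at, which on this type of array marks probes shared by more than 1 transcript, so that the copies of the gene in the 3 wheat genomes cannot be told apart. Levels are log2 of the deposited intensities, and a stage mean above 5 was taken as expressed. Because probes differ in their affinity, a level was compared only within a probe set. Overlap between the arrays of stages is given as a description, and the share of all probe sets without overlap was not counted. The transcript was selected for its rise from DA to T and its loss in MAN. The changes over these intervals are therefore given as a description with no test, and only the comparisons of LP with PM, DA with LP and IP with T were tested.

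One array stood apart from the rest. It bears on the IP values and, because all arrays entered a shared model, on the SE of every step. The hybridization controls, which are spiked in with the labelled RNA and have 27 probe sets, had a mean level of 8.69 on IP replicate 1, of 9.90 to 10.64 on 17 arrays and of 11.08 to 11.30 on the 3 MAN arrays. The probe set of 18S ribosomal RNA was at 8.55 on IP replicate 1, and at 13.19 and 13.78 on the other 2 IP arrays. The brightest probe set had an intensity of 20508 on that array, and of 32129 to 37341 on each of the remaining 20. The changes of G-6-PDH to and from IP are given with and without this array. Those scaled to the hybridization controls are given only with it. The median of all probe sets was 5.57 to 5.71 over the 21 arrays.

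Over the first 3 stages the levels of G-6-PDH lay within narrow bands. In PM the 5′ probe set had levels of 5.46, 6.07 and 5.86 on replicates 1 to 3, in LP of 6.20, 6.28 and 6.18, and in DA of 6.14, 6.23 and 5.81. The middle probe set was at 7.72, 7.79 and 7.62 in PM, at 8.29, 8.14 and 8.45 in LP and at 8.06, 8.24 and 7.88 in DA. The 3′ probe set was at 10.19, 10.48 and 10.11 in PM, at 10.36, 10.27 and 10.30 in LP and at 10.79, 10.77 and 10.72 in DA. All arrays of these stages were above 5 for each region, so that the transcript was expressed before and during prophase I.

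**Figure D1:**
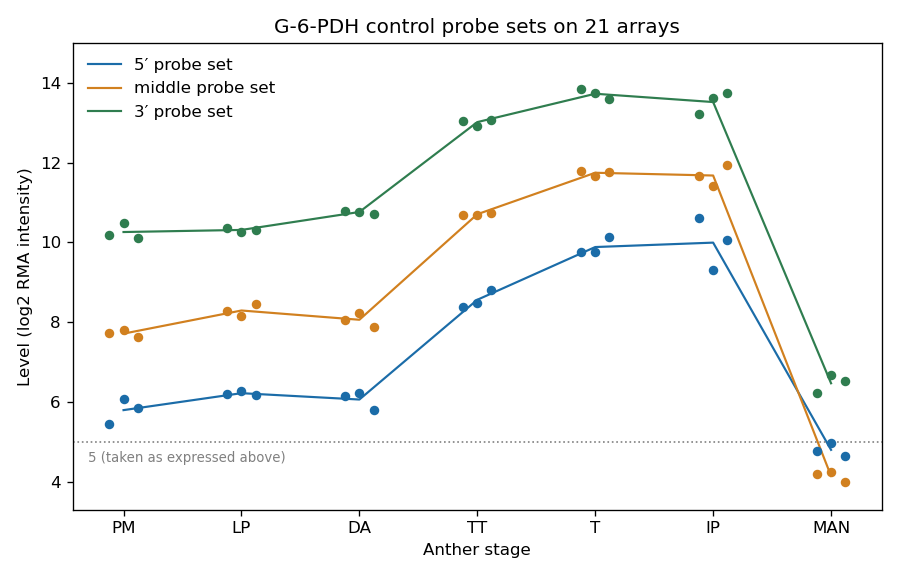
Level of the 3 G-6-PDH probe sets (log2 RMA intensity, vertical axis) at the 7 anther stages; points are arrays, lines join the means of 3 arrays, and the dotted line is the level of 5. In MAN the 5′ and middle probe sets lie below 5, while the 3′ probe set lies at 6.22 to 6.67.

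The middle region rose from PM to LP, and the other regions did not pass the test. Its change was 0.58 on the log2 scale (SE 0.126, adjusted p = 0.0058 from limma), or 1.49-fold, and the arrays of the 2 stages did not overlap. The 5′ region had a change of 0.42 with a 95% interval of -0.01 to 0.86 (adjusted p = 0.28 from limma), although its arrays did not overlap either. The 3′ region had a change of 0.05 with an interval of -0.22 to 0.32 (adjusted p = 0.89 from limma). Thus 1 of 3 regions was called, and it was higher, where 5.90% of all 61290 probe sets were called, 3.66% higher and 2.24% lower. The call for the middle region ended without LP replicate 3 (change 0.50, adjusted p = 0.053), in the methods' t-test (adjusted p = 0.22 over all probe sets, as limma's) and after scaling to the hybridization controls (change 0.67, SE 0.337).

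From LP to DA the 3′ region was the one that rose. Its change was 0.45 (SE 0.132, adjusted p = 0.049 from limma), or 1.37-fold, with no overlap of the arrays. The middle region had a change of -0.23 with an interval of -0.49 to 0.03 (adjusted p = 0.41 from limma). The 5′ region had a change of -0.16 with an interval of -0.60 to 0.28 (adjusted p = 0.84 from limma). Again 1 of 3 regions was called, where 4.56% of all probe sets were called, 1.65% higher and 2.90% lower. The call for the 3′ region lay at the threshold. It ended when any 1 of the 6 arrays of LP and DA was left out (changes of 0.43 to 0.47, adjusted p of 0.11 to 0.15). With the replicate number as a block it ended too (0.45, adjusted p = 0.052), as it did after scaling to the hybridization controls and centring on the array median. It held in the methods' t-test (adjusted p = 0.036). In limma it held on the 2 stages alone (adjusted p = 0.0076), with a minimum mean of 5 (adjusted p = 0.04) and without IP replicate 1 (adjusted p = 0.018). No region passed the test at both steps.

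The main rise came between DA and TT. In TT the 5′ probe set had levels of 8.39, 8.49 and 8.80, the middle one of 10.69, 10.70 and 10.73, and the 3′ one of 13.04, 12.93 and 13.08. The increase over DA was 2.50 (SE 0.213) for the 5′ region, 2.65 (SE 0.126) for the middle and 2.25 (SE 0.132) for the 3′ region, which is 5.66-fold, 6.26-fold and 4.77-fold. Every TT array was above every DA array in all 3 regions. In the model over 21 arrays, from which the SE comes, 2.62% of all probe sets were called between DA and TT, 1.29% higher and 1.32% lower.

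The rise went on from TT to T with smaller steps. In T the 5′ probe set stood at 9.75, 9.75 and 10.15, the middle one at 11.80, 11.68 and 11.76, and the 3′ one at 13.84, 13.75 and 13.59. The steps were 1.32 (SE 0.213), 1.04 (SE 0.126) and 0.71 (SE 0.132) in the order 5′, middle, 3′. The arrays of the stages did not overlap in any region. Of all probe sets 6.20% were called at this step, 3.12% higher and 3.07% lower. The intensity of the 3′ probe set, 12357 to 14618 on the T arrays, was in the upper part of the scale, whose highest value on these arrays was 35975 to 36657. From DA to T the whole change was 3.82 (SE 0.213), or 14.2-fold, in the 5′ region, 3.69 (SE 0.126), or 12.9-fold, in the middle, and 2.96 (SE 0.132), or 7.80-fold, in the 3′ region. On the log2 scale 65.4% of the 5′ change, 71.8% of the middle change and 76.0% of the 3′ change had been reached by TT. Of all 61290 probe sets, 12.6% were called between DA and T, 4.87% higher and 7.75% lower in T. A change at least as large as that of the 5′, middle and 3′ region was seen in 74, 79 and 117 probe sets, the region itself included.

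**Figure D2:**
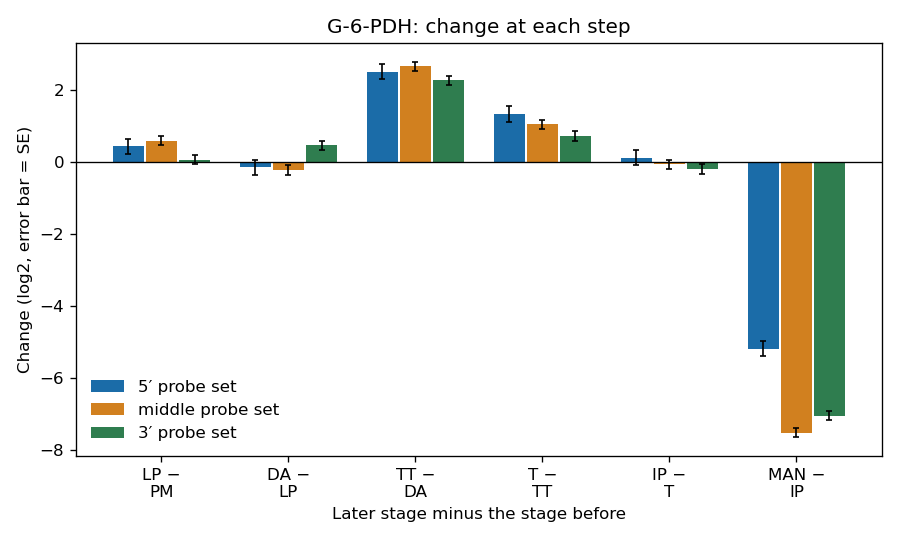
Change of each G-6-PDH probe set (log2, vertical axis) from each stage to the next; bars are differences of stage means over 3 arrays each, and error bars are SE from limma. The increases are largest at TT minus DA (2.25 to 2.65), and the only large decrease is at MAN minus IP.

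The poly-A controls, which are added to the RNA before amplification and have 42 probe sets, were higher in DA (7.30 to 7.54) than in TT (6.34 to 6.40), and lay at 6.37 to 7.09 in T. They moved against G-6-PDH between DA and TT. Their part in the size of the rise was not tested. Scaling to the hybridization controls gave a change from DA to T of 4.18, 4.05 and 3.33 in the 5′, middle and 3′ region, and took the median change over the whole table from -0.01 to 0.35. With it 1.86% of all probe sets were called higher and 0.0522% lower in T than in DA.

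Between T and IP no region passed the test. In IP the 5′ probe set was at 10.61, 9.31 and 10.07 on replicates 1 to 3, the middle one at 11.68, 11.40 and 11.95, and the 3′ one at 13.21, 13.61 and 13.74. The spread was the widest of any stage in each region, with an SD of 0.653, 0.275 and 0.276 (n = 3) in the order 5′, middle, 3′. In limma the change was 0.11 (95% interval -0.33 to 0.55, adjusted p = 0.81) for the 5′ region, -0.07 (-0.33 to 0.19, adjusted p = 0.80) for the middle and -0.21 (-0.48 to 0.06, adjusted p = 0.34) for the 3′ region. The intervals reach at most 0.55 in either direction. Thus 0 of 3 regions were called, and 0 had an unadjusted p under 0.05, where 17.2% of all probe sets were called, 7.99% higher and 9.24% lower. Without IP replicate 1 the 5′ change turned to -0.20 (adjusted p = 0.63 from limma), and the middle and 3′ changes were -0.07 and -0.05.

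In mature anthers the transcript was lost from the 5′ and middle probe sets and remained above 5 only in the 3′ probe set. The 5′ levels were 4.77, 4.98 and 4.65, the middle ones 4.19, 4.26 and 3.99, and the 3′ ones 6.22, 6.67 and 6.52. As intensities, the middle region went from 2707 to 3964 on the IP arrays to 15.9 to 19.1 on the MAN arrays, and the 3′ region from 9473 to 13655 to 74.7 to 101.6. The 3′ region fell by 7.05 from IP to MAN (SE 0.132), a factor of 132.6. With levels below 5 set to 5, the middle region was at least 102.4-fold lower and the 5′ region at least 31.9-fold lower. The measured differences were -7.53 (SE 0.126) and -5.20 (SE 0.213). Without IP replicate 1 the 3′, middle and 5′ differences were -7.21, -7.53 and -4.89.

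The MAN levels were also below those before meiosis, with no overlap of MAN and PM arrays in any region. The PM mean was 13.9-fold above the MAN mean in the 3′ region. The middle and 5′ means of MAN are below 5, and the measured ratios there were 11.9 and 1.995. Of all probe sets, 64.3% were called between IP and MAN, 25.6% lower and 38.7% higher in MAN. A decrease at least as large as that of the 3′ region was seen in 92 probe sets, the region itself included. Scaling to the hybridization controls, which were brightest in MAN, enlarged the measured differences to -8.47, -8.95 and -6.61 in the order 3′, middle, 5′, and took the median change over the table from 0.17 to -1.25. With it 90.1% of all probe sets were called between IP and MAN, 87.1% lower and 3.04% higher in MAN, so that the direction of most other changes into MAN depends on the scaling. The IP values in this scaling include replicate 1, whose hybridization controls were the lowest (8.69), and the scaling was not repeated without it. In whole anthers, fewer cells of a type and less RNA per cell cannot be told apart.

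Ordered by level, the stages came in a similar sequence in the 3 regions. MAN was lowest for every region, PM, LP and DA followed, and TT, T and IP were highest. In the 5′ region the gap between TT and T (1.32) was larger than that between MAN and PM (0.996). Among PM, LP and DA the arrays of neighbouring stages overlapped for PM and DA and for DA and LP in the 5′ region, for DA and LP in the middle region and for PM and LP in the 3′ region. T and IP overlapped in every region and changed places between them, with the highest mean in IP for the 5′ region (9.99 ± 0.653, SD, n = 3) and in T for the middle (11.75 ± 0.064) and the 3′ region (13.73 ± 0.124). TT did not overlap with any neighbour in the order. The stage means of the 3′ region spanned 7.26. Those of the middle and 5′ region, whose MAN means are below 5, spanned at least 6.75 and 4.99.

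The 3 regions did not move by the same amount, which shows in their differences on each array. Amplification starts at the 3′ end of a transcript and favours it, so that such differences hold the state of the RNA and the amplification as well as the affinity of the probes. The 3′ minus 5′ difference of log2 levels was 4.47 ± 0.244 (SD, n = 3) in PM, 4.09 ± 0.086 in LP, 4.70 ± 0.189 in DA, 4.45 ± 0.191 in TT, 3.84 ± 0.347 in T, 3.52 ± 0.861 in IP and 1.67 ± 0.206 in MAN. The T arrays (3.44 to 4.08) lay below every DA array (4.54 to 4.91). The difference thus narrowed from DA to T. Over this interval that of ubiquitin, another wheat control, also narrowed, from 0.85 to 0.31, while its 3′ mean stayed at 13.30 and 13.31. That of actin went from -1.69 to -2.02 and that of the poly-A controls from 3.85 to 3.68. Those of sucrose synthase (5.80 to 6.02) and CYP86 (0.93 to 1.06) went up. In MAN the 5′ level of G-6-PDH was below 5, so that the MAN value is no measure of the ratio of the regions.

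Between 3′ and middle the LP arrays stood apart from those of PM and DA. The difference was 1.85 to 2.13 on the LP arrays, 2.47 to 2.69 in PM and 2.53 to 2.84 in DA, and no LP array overlapped with PM or DA. From PM to LP the middle region had the larger change, and from LP to DA the 3′ region had a change of 0.45 and the middle region of -0.23. The 3′ minus middle difference was 2.23 to 2.35 in TT, 1.83 to 2.08 in T, 1.53 to 2.21 in IP and 2.03 to 2.53 in MAN. LP overlapped with T, IP and MAN. For sucrose synthase, another wheat control, it was also lower in LP (4.24 to 4.40) than in PM (4.64 to 4.95) and DA (4.76 to 5.14). For ubiquitin, CYP86, actin and the poly-A controls the LP mean was not below both. The middle of sucrose synthase was called higher in LP than in PM (0.55, adjusted p = 0.049 from limma). It was called lower in DA than in LP (-0.72, adjusted p = 0.01 from limma). Between middle and 5′ of G-6-PDH the stage means lay between 1.68 and 2.14 from PM to IP. The sign turned in MAN to -0.65 ± 0.077 (SD, n = 3), where both probe sets were below 5.

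**Figure D3:**
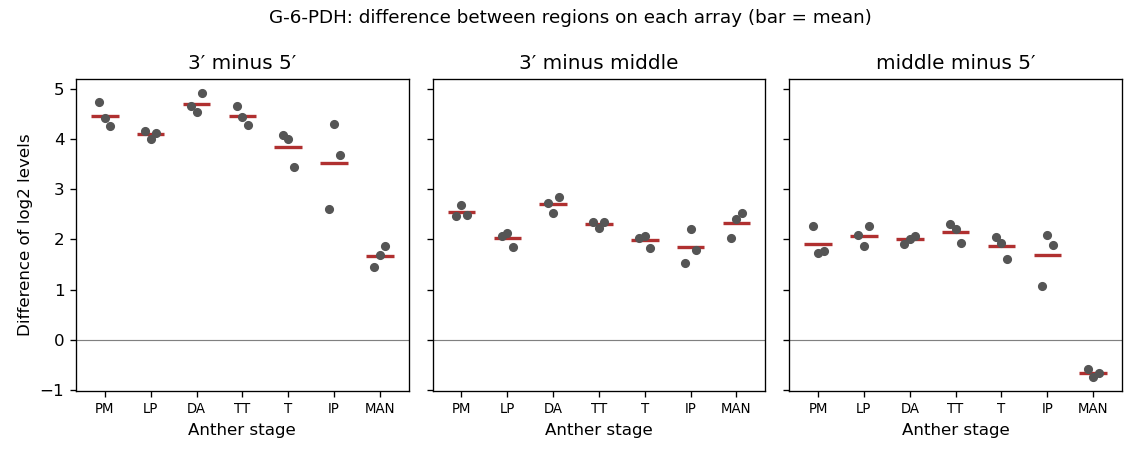
Difference of log2 levels between the regions of G-6-PDH on each array, by stage, for 3′ minus 5′, 3′ minus middle and middle minus 5′; points are arrays and bars are means of 3 arrays. In IP the lowest 3′ minus 5′ difference (2.60) is replicate 1, and in MAN the 3 arrays lie at 1.46 to 1.87.

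On IP replicate 1 the 5′ level was the highest of the 3 arrays and the 3′ level the lowest, and the 3′ minus 5′ difference was 2.60, against 4.30 and 3.67 on replicates 2 and 3. The same array had the smallest difference for sucrose synthase (5.40, against 8.71 and 8.45) and ubiquitin (-0.57, against -0.10 and 0.02), which are other wheat controls, and for the poly-A controls (3.45, against 3.78 and 4.12). For CYP86 (1.57, against 1.46 and 2.10) and actin (-1.61, against -1.68 and -1.74) it had not. On the poly-A controls dap, lys, phe and thr, the mean 3′ minus 5′ difference was 3.51 to 3.85 in the stages PM to IP and 4.55 in MAN. The part of amplification in the differences between regions was not tested.

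**Figure D4:**
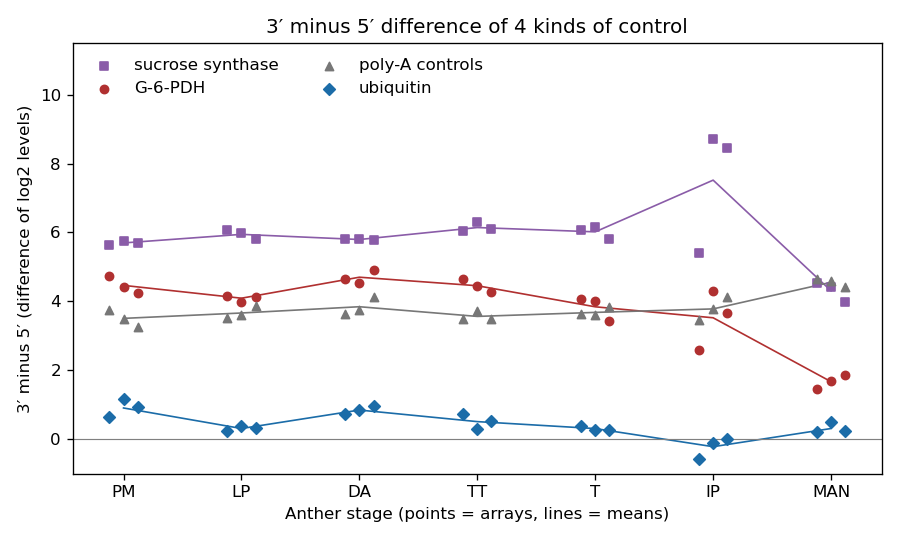
Difference of log2 levels between 3′ and 5′ probe sets for G-6-PDH, sucrose synthase, ubiquitin and the mean of 4 poly-A controls at the 7 stages; points are arrays and lines join means of 3 arrays. IP replicate 1, the left point at IP, is lowest of its stage for these 4, with 2.60 for G-6-PDH.

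None of the other 22 wheat control probe sets, which stand for actin, ef1a, gapdh, 18S ribosomal RNA, CYP86, sucrose synthase and ubiquitin, had a rise of this size from DA to T. Their changes over this interval were -0.25 to 0.55. From IP to MAN they ranged from -7.04, for the middle of sucrose synthase, to 8.83, for the 3′ end of actin, and 4 of the 22 had their lowest stage mean in MAN and 11 their highest. A lowest mean in MAN was therefore shared by some controls and the rise by none of them. The fall of the middle of sucrose synthase followed a peak in IP, with means of 4.98 in PM, 11.62 in IP and 4.58 in MAN.

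The profile of G-6-PDH over the stages was compared with those of all other probe sets whose stage means spanned at least 2-fold, which were 19739 without the controls. Likeness was measured by Pearson's r of the 7 stage means with the mean of the 3 G-6-PDH probe sets, as a description, since these points come from the same arrays. An r of at least 0.95 was reached by 58 probe sets and of at least 0.99 by 4. The closest was Ta.3644.1.A1_a_at (r = 0.998), with a level of 11.08 ± 0.030 (SD, n = 3) in DA, 13.95 ± 0.119 in T, 14.04 ± 0.493 in IP and 7.87 ± 0.367 in MAN. Ta.3609.3.S1_a_at (r = 0.993), TaAffx.65077.1.A1_at (r = 0.992), Ta.3456.1.A1_at (r = 0.991) and Ta.6529.2.S1_x_at (r = 0.988) followed, and none of these 5 has a gene in the platform's annotation. Ta.3456.1.A1_at was higher in T than in DA by 4.40 (SE 0.129) and in MAN it fell by 7.21 from IP. Ta.6529.2.S1_x_at changed by 0.73 and -1.72 over the same intervals.

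**Figure D5:**
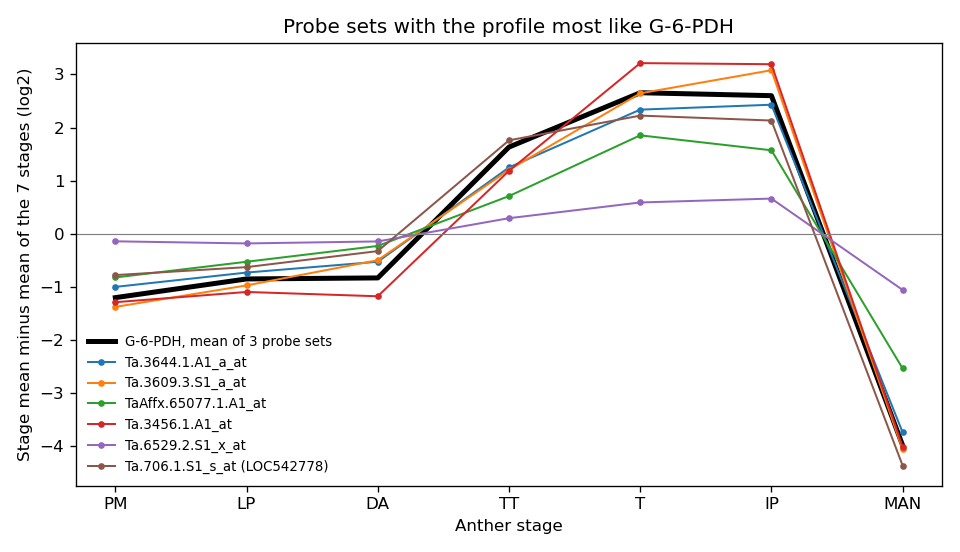
Stage means of 6 probe sets close to G-6-PDH and of the mean of the G-6-PDH probe sets (thick line), each minus its mean over the 7 stages (log2, vertical axis). The profiles share the step between DA and T and the drop in MAN and differ in size, with the smallest span in Ta.6529.2.S1_x_at.

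MAN weighs heavily in this measure, and over the 6 stages without it the same 5 probe sets had an r of 0.983 to 0.997, with ranks between 3 and 26. Among probe sets that the annotation assigns to a gene, Ta.706.1.S1_s_at of LOC542778, which has no name there and was picked after its values were seen, was closest (r = 0.985, and 0.994 without MAN). Its level was 11.22 ± 0.120 (SD, n = 3) in DA, 13.30 ± 0.068 in TT, 13.77 ± 0.075 in T, 13.68 ± 0.293 in IP and 7.17 ± 0.216 in MAN. Of the 200 probe sets with a name or synonym, the closest were TaAffx.128414.16.S1_at of rbcl, the large subunit of Rubisco (r = 0.943), Ta.2307.1.S1_at of Pgk-1, a phosphoglycerate kinase (r = 0.935), and Ta.4091.1.S1_x_at of raftin1b, made in the tapetum (r = 0.933). In the ranking of all compared probe sets these 3 stood at 77, 98 and 110. Without MAN their r was 0.857 to 0.880, with ranks of 624, 873 and 747. Their changes from DA to T were 0.54 (SE 0.199), 0.61 (SE 0.126) and 0.79 (SE 0.156), and the rbcl probe set was above 5 only in TT, T and IP.

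Markers of the cells in the anther were set beside these profiles. The 4 probe sets of the raftins, proteins of the tapetum, had a mean level of 11.86 to 11.96 on the DA arrays, 12.30 to 12.59 in T, 12.78 to 13.23 in IP and 8.07 to 8.51 in MAN. In limma 4 of the 4 were higher in LP than in PM (against 3.66% of the whole table). In T 2 were higher than in DA (against 4.87%), and in MAN 4 were lower than in IP (against 25.6%). The meiotic genes DMC1 and ASY1, by the probe sets that the study assigned to them, had a mean level of 11.34 to 11.39 in PM, 9.97 to 10.06 in T and 5.78 to 6.15 in MAN, and 1 of these 2 was lower in T than in DA (against 7.75% of the whole table). Of 18 histone H2A and H2B probe sets, which mark dividing cells, 5 were lower in T than in DA (against 7.75%) and 17 lower in MAN than in IP (against 25.6%). The exception, Ta.27192.1.S1_s_at of H2A-3, was at 6.64 in IP and 6.72 in MAN. The 2 profilin probe sets, listed as pollen markers, were also high before pollen forms. Ta.5057.3.A1_at was at 13.93 in PM and 13.90 in MAN. Ta.5057.1.S1_x_at was at 10.64 in LP, after a rise of 0.68 from PM, and at 10.42 in MAN. The 2 were called higher in MAN than in IP (against 38.7% of the whole table), and 0 were called between DA and T (against 12.6%). Of 30 probe sets of rbcl and PsbP, 2 were higher in T than in DA (against 4.87%), and 12 were lower (against 25.6%) and 5 higher (against 38.7%) in MAN than in IP. The mean levels of the raftins, of DMC1 and ASY1 and of the histones were lowest in MAN, as was G-6-PDH. The mean of the rbcl and PsbP list was lowest there too (5.21 to 5.27). That of the profilins was not lowest in MAN. From IP to MAN the PsbP probe sets Ta.85.1.S1_at and TaAffx.120874.1.S1_x_at changed by -5.79 and -2.99. The median change of the rbcl and PsbP list was -0.16, and the 5 probe sets called higher in MAN were of rbcl. The low mean of this list therefore does not describe rbcl throughout. The part of cell composition in the G-6-PDH profile was not tested.

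For the pathway itself the named annotation was thin. No named probe set matched the lists of G-6-PDH, of the other pentose phosphate enzymes, of other sources of NADPH or of NADPH-dependent redox enzymes. Probe sets with the synonyms Prx1 or PER1 had been left out of the redox list. These names do not say whether a peroxiredoxin or another kind of peroxidase is meant. GAPN (Ta.511.1.S1_at), a glyceraldehyde-3-phosphate dehydrogenase that yields NADPH, was not on these lists, and its stage means were 7.26 to 8.74. The list of hexose phosphate supply held 4 probe sets, 3 of the control transcript sucrose synthase, which cleaves sucrose, and Ta.198.1.S1_at, whose gene has IVR1, the name of an invertase, among its synonyms. None of the 4 was called between DA and T, where 12.6% of all probe sets were called. Their changes were 0.00 to 0.22, with a median of 0.19, against -0.01 over all probe sets. From T to IP all 3 of sucrose synthase rose (adjusted p of 1.4e-20 to 1.1e-06 from limma), where 7.99% of all probe sets were called higher. The 3′ region rose by 4.26 (SE 0.137), or 19.2-fold. The middle and 5′ regions had T means of 4.98 and 3.92, below 5, and rose at least 98.1-fold and at least 3.20-fold. The 5′ levels in IP were 8.31, 5.70 and 6.02 on replicates 1 to 3, and without replicate 1 the bound for the 5′ region was 1.82-fold, for the middle 81.7-fold and the 3′ change 22.7-fold, all still called. Ta.198.1.S1_at had a mean below 5 at every stage. From IP to MAN the 3 sucrose synthase probe sets were called lower, where 25.6% of all probe sets were called lower.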

How the data were processed

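The deposited intensities of the Affymetrix wheat arrays came from RMA, by which the authors removed background, adjusted the arrays to each other and condensed each probe set to 1 value. The RMA software is not given in the sources used here. Since the table is linear, its log2 was used throughout. RMA adjusts every array to the others, so that levels are relative to the other RNA of the array. All 61290 probe sets, the 111 control probe sets included, entered 1 model in limma 3.58.1 (R 4.3.3) with a mean for each of 7 stages over 21 arrays, with 14 residual and 10.5 prior degrees of freedom. An adjusted p (Benjamini-Hochberg over the table) under 0.05 was a call. Precision is limited by the number of arrays. The script was tested on simulated data. Python 3.11.15, pandas 2.3.3 and matplotlib 3.10.9 served for tables and plots.

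The members and the gene lists were chosen with earlier results of these data known. Named were the 3 members, up to 4 members of each pathway list, the 5 closest profiles and the 3 closest with a gene name. The annotation assigns a gene to 1273 probe sets, and 200 have a name or synonym. The table does not show which probe sets the authors discarded, so none was removed. Alternatives were the methods' t-test (Student's test with equal variances, adjusted in the same way), limma on 2 stages, a replicate block, scaling to the hybridization controls, centring on the array median, a minimum mean of 5, and each array left out. The omission of IP replicate 1 from comparisons without IP and from sucrose synthase, and of MAN from the correlation, were added after the data were seen.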

Additional observations from a re-analysis of the deposited data

How the results depend on the processing

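Over the 15 changes of a region, 160 of 183 alternative values kept their direction and their side of the threshold, or moved by less than the spread between arrays. For DA to T and IP to MAN, which had no test, most settings could not give another outcome. The fit on the compared stages alone, the replicate block and the minimum mean leave the change itself unaltered there. So does leaving IP replicate 1 out of the shared fit for DA to T. Leaving out a single array shifts a stage mean by less than this spread. The count therefore says little of how firm these changes are. After scaling to the hybridization controls, which gave every region an SE of 0.337, the change of the middle region from PM to LP was 0.67 and that of the 3′ region from LP to DA was 0.28, neither called. This scaling gave 0.20 and 0.0571 for the middle and 3′ region from T to IP, with the sign turned. It gave 4.18, 4.05 and 3.33 from DA to T and -6.61, -8.95 and -8.47 from IP to MAN (5′, middle, 3′). All of these values include IP replicate 1, whose low controls enter the scaling, and the scaling was not repeated without it. The cause was not tested. The methods' t-test gave 0.58 for the middle region from PM to LP without a call. Centring on the median gave 0.44 and the replicate block 0.45 for the 3′ region from LP to DA, both without a call, so 0 regions were called in each of these settings. The block changed no other call of a region. No source states what the replicate numbers share. The deviations of same-numbered arrays correlated above 0.1 in 11 of 63 pairs (-0.387 to 0.392), and 11 of 21 arrays were closest to their own number.

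With single arrays left out, the change from PM to LP was 0.26 to 0.56 in the 5′, 0.50 to 0.65 in the middle and -0.023 to 0.16 in the 3′ region, which turned without PM replicate 3, and 0 to 1 regions were called. From LP to DA it was -0.24 to -0.03, -0.32 to -0.14 and 0.43 to 0.47, with 0 regions called in each case. From T to IP it was -0.20 to 0.45, -0.21 to 0.0684 and -0.32 to -0.05, with 0 called, where the 5′ region turned without IP replicate 1 and the middle region without IP replicate 2. From DA to T it was 3.69 to 3.91, 3.60 to 3.78 and 2.91 to 3.03, and from IP to MAN -5.54 to -4.89, -7.67 to -7.39 and -7.21 to -6.93.

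Over the whole table, limma called 3617, 2792, 10563 and 7737 probe sets for LP and PM, DA and LP, IP and T, and T and DA. The methods' t-test gave 1, 586 and 2939 for the first 3 of these, and scaling to the hybridization controls gave 32, 42, 2389 and 1172. With this scaling 80.7% instead of 46.4% of the calls were higher for IP and T, 97.3% instead of 38.6% for T and DA, 95.8% instead of 49.4% for TT and DA and 95.5% instead of 50.4% for T and TT. On 2 stages limma gave 1889 for LP and PM, 4774 for DA and LP and 13842 for T and DA. For MAN and IP limma called 39383, with 60.2% of them higher, against 55224 with 3.37% higher after scaling to the hybridization controls. Single arrays left out gave down to 1584 for LP and PM (without LP replicate 3) and 1174 for DA and LP (without DA replicate 3).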

Other observations

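Other genes of sugar phosphate metabolism, chosen after the names of the annotation were seen, are given for comparison. Of 8 such probe sets, 2 were higher in T than in DA in limma and none lower, where 4.87% of all probe sets were called higher and 7.75% lower. They were Pgk-1 (Ta.2307.1.S1_at, phosphoglycerate kinase), which rose by 0.61 (SE 0.126, adjusted p = 0.0014), and PRK (Ta.23158.1.S1_at, phosphoribulokinase of the Calvin cycle), which rose by 0.57 (SE 0.136, adjusted p = 0.0047). From T to IP 4 of the 8 rose, where 7.99% of all probe sets were called higher. FBP (Ta.439.1.S1_at, a fructose-1,6-bisphosphatase) rose by 1.08 (SE 0.139, adjusted p = 1.4e-06 from limma) and GAPN (Ta.511.1.S1_at, the glyceraldehyde-3-phosphate dehydrogenase that yields NADPH) by 1.11 (SE 0.134, adjusted p = 5.5e-07 from limma). GAPN had a level of 7.63 ± 0.182 (SD, n = 3) in T, 8.74 ± 0.209 in IP and 7.56 ± 0.06 in MAN, so its highest mean was in IP.

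From IP to MAN 5 of the 8 were lower and 2 higher in the deposited normalization, where 25.6% of all probe sets were called lower and 38.7% higher. The lower ones include PFK (Ta.4637.1.A1_at, change -0.36), whose mean was below 5 at every stage. The higher ones include PMM (Ta.29895.2.A1_at, change 0.41), which lay at the threshold (adjusted p = 0.05 from limma). PRK went from 11.06 ± 0.253 in IP to 4.92 ± 0.24 in MAN (SD, n = 3), below 5. Pgk-1 fell by 2.27 (SE 0.126) and stayed at 10.63 ± 0.057 in MAN. The 2 probe sets of FBP disagreed, with a change of -2.89 (SE 0.139) for Ta.439.1.S1_at and of 0.97 (SE 0.234) for TaAffx.106041.1.S1_at.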
